A study of Mus musculus with 6 samples.

Results

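Interferon-stimulated genes are the genes that cells switch on when interferon, or their own sensing of foreign nucleic acid, activates them. A list of 42 such genes was followed in NIH3T3 cells, an established line of mouse embryonic fibroblasts. Members were found by matching the Ensembl gene IDs of the deposited tables to symbols, which gave 40 of the 42 among 24938 listed genes. The expression of Rsad2 and Cmpk2 was not analysed here, and they enter only the promoter search. RNA sequencing had been done on 3 libraries labelled wild type, called control here, and on 3 in which F-CircAE was overexpressed. F-CircAE is a circular RNA, closed into a ring without free ends, and is related to AML1-ETO. That fusion arises in a human leukaemia from a translocation between RUNX1 and RUNX1T1. The labels name no interferon treatment and no infection. The control titles begin with the letter V, which the labels do not explain, while the genotype is given as wild type. Whether the controls carried an empty vector is thus not known, and if they did not, what came with the overexpression procedure cannot be told apart from the circular RNA. Separate cultures behind the replicates are not stated either, so p-values measure library-to-library spread, possibly only technical. Levels are in FPKM, fragments scaled by the authors to gene length and library size, which allows genes to be compared with each other.

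Type I interferon binds the receptor Ifnar1 and Ifnar2, whose kinases Jak1 and Tyk2 activate Stat2. With Irf9 it belongs to a complex that binds the interferon-stimulated response element, a DNA motif near the start of many target genes, while interferon gamma acts mainly at the gamma-activated site. The products degrade or sequester viral RNA, block viral entry and release, and raise presentation of peptides on MHC class I molecules. Unstimulated fibroblasts are known to keep a low, tonic level of part of this programme.

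To show what stands in front of these genes, promoter windows were taken from RefSeq (build GRCm38.p6), each running from 250 bases before to 50 bases after a transcription start. Of the 42 members 32 had a window, and both strands were searched for the core of the response element, GAAANNGAAA. Some genes have several windows, and a match in any counted. It was found in 15 of the 32 members (46.9%), against 3.99% of 27025 genes of the table. More than 1 match, counting matches that overlap each other, was found in 8 members. The gamma-activated site, searched as TTCNNNGAA, was found in 8 of the 32 members (25.0%) and in 9.55% of all genes. A match is a run of letters and does not show that a factor binds. The 160 bases before the start of 6 members follow, chosen after the levels were seen because all 6 hold the core while their levels differ widely. B2m (chr2:122147527-122147686, forward strand), Isg15 (chr4:156200819-156200978, reverse strand) and Bst2 (chr8:71537473-71537632, reverse strand) come first. Ifit3 (chr19:34583369-34583528), Ifit1 (chr19:34640729-34640888) and Ddx60 (chr8:61927927-61928086), all on the forward strand, follow. Sequences are written in the direction of the gene, and capitals mark the core, which in Ifit3 and Ifit1 appears as its reverse complement.
B2m: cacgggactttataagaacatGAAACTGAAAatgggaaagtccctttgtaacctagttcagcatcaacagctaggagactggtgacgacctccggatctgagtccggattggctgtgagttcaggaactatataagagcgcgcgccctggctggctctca
Isg15: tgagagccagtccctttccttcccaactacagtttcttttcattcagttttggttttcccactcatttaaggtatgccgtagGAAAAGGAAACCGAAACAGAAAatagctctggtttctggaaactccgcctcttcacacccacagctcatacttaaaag
Bst2: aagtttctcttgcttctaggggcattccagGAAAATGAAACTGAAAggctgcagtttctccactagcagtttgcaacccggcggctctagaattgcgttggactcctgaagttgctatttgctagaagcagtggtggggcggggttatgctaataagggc
Ifit3: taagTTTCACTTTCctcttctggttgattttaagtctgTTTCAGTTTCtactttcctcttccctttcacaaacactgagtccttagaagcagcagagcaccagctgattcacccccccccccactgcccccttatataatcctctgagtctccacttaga
Ifit1: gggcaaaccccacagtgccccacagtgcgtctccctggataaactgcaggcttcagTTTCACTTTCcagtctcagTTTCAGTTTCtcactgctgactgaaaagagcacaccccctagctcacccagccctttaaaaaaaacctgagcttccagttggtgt
Ddx60: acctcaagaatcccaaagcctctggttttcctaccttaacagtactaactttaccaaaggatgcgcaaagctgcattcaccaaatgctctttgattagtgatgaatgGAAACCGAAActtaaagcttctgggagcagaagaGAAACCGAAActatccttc
Relative to the start, the core begins at -139 in B2m, at -78, -72 and -66 in Isg15, where 3 matches overlap, and at -130 and -124 in Bst2. It begins at -156 and -122 in Ifit3, at -104 and -85 in Ifit1, and at -53 and -19 in Ddx60. Mean levels over the 6 libraries were 499 FPKM for B2m, 26.3 for Bst2, 9.45 for Isg15, 2.79 for Ifit3, 0.435 for Ifit1 and 0.013 for Ddx60. Of the members with a window, the core was found in 10 of 22 above the expression filter used below (45.5%) and in 4 of 8 listed members under it (50%). The other two windows belong to Rsad2, which holds the core, and Cmpk2, which does not.

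The 6 libraries rested on 16969915 to 21843880 reads, recovered from the FPKM steps. Control replicates 1 and 2 were nearly the same. The chi-square per gene between their reads was 1.45, where counting error alone gives about 1, against 5.01 to 24.6 in the other pairs of libraries. They are entered separately below, and counts are also given with both averaged to 1 library. All 10 fibroblast markers checked were expressed, and their summed level ran from 2680 to 3220 FPKM in control and from 2420 to 2950 with overexpression. Of 8 listed leukocyte and macrophage markers 3 (Lyz2, Cd14 and Cd68) were above the filter, with a summed level of all 8 of 33.5 to 38.9 FPKM in control and 29.9 to 35.7 with overexpression. The defining leukocyte gene Ptprc had a mean of 0.00789 FPKM. Of the listed epithelial markers 1 of 4 (Cdh1, mean 2.58 FPKM) was above it, and of the listed endothelial markers 0 of 3.

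NIH3T3 cells expressed a part of the interferon programme, and its members differed widely in level. Of the 40 listed members 25 were above 1 FPKM in at least 3 libraries (62.5%, against 49.0% of all genes), and no member passed that filter through 1 group alone. By mean level 3 members lay above 100 FPKM, 7 between 10 and 100, 15 between 1 and 10, 9 between 0.1 and 1, and 6 under 0.1. Across all genes 1.81% lay above 100 FPKM. B2m, Ifitm2 and Ifitm3 together held 84.8% of the summed FPKM of the members. The RNA came from bulk cells, in which fewer cells with a transcript and less transcript per cell cannot be told apart.

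**Figure D1:**
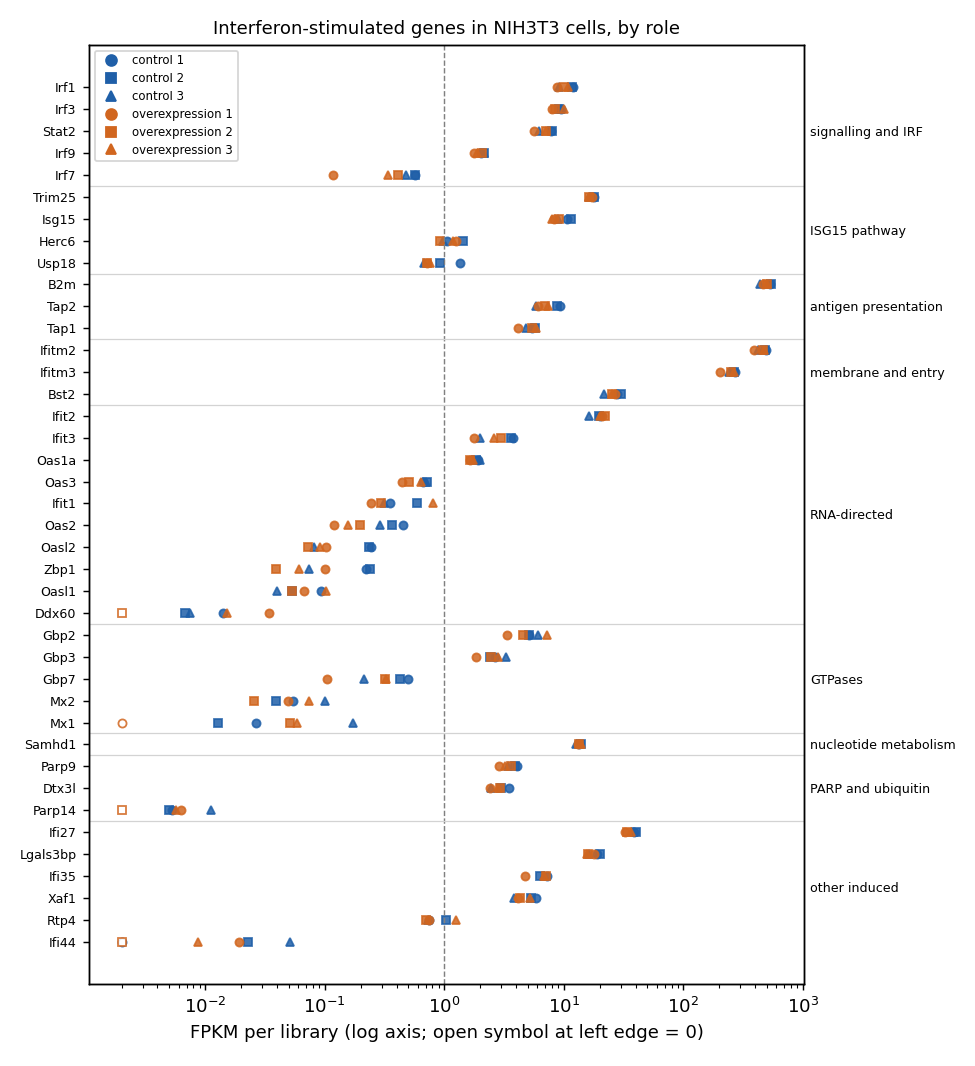
FPKM of the 40 listed interferon-stimulated genes in each of the 6 libraries, on a log axis, grouped by role. Each symbol is 1 library, an open symbol at the left edge is a value of 0, and the dashed line marks 1 FPKM. B2m, Ifitm2 and Ifitm3 stand above 100 FPKM in all 6 libraries, whereas Mx1, Mx2, Ifi44, Ddx60, Oasl1 and Parp14 have means under 0.1.

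Transcription factors of the pathway were expressed at moderate levels, with Irf7 as the exception. Irf1, a factor induced by interferon gamma that drives antigen presentation genes, was the highest (chromosome 11, 53770014 to 53778374, mm10). In the order of the replicate numbers, its control libraries stood at 12, 11.8 and 9.12 FPKM and those with overexpression at 8.85, 10 and 10.8. Values per library below follow the same order. Irf3, which is activated by phosphorylation after foreign nucleic acid is sensed, had 9.46, 9.21 and 9.45 FPKM in control and 7.94, 8.53 and 9.99 with overexpression. The groups overlapped for both, with overexpression replicate 1 the lowest library in each. Stat2 had 7.84, 8.0 and 6.28 FPKM in control and 5.61, 7.08 and 7.07 with overexpression, and again the groups overlapped. Its partner Irf9 had 2.02, 2.15 and 2.16 FPKM in control and 1.77, 2.07 and 1.89 with overexpression. Stat2 was 2.91 to 3.87 times as high as Irf9 across the 6 libraries. Irf7, which amplifies interferon alpha production, was under the filter. It had 0.566, 0.574 and 0.484 FPKM in control and 0.117, 0.415 and 0.337 with overexpression, on 152 reads in all. Irf1 exceeded it between 18.8 and 75.4 times.

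Other genes of the signalling chain were taken from a list of 18, of which 16 were in the tables and 13 were above the filter. Both chains of the type I receptor were present, Ifnar1 at a mean of 8.21 FPKM and Ifnar2 at 5.91, and both of the gamma receptor, Ifngr1 at 12 and Ifngr2 at 9.91. Jak1 was the highest kinase at 28.4 FPKM, ahead of Tyk2 at 9.75 and Jak2 at 9.56. The negative regulators Socs3 and Socs1 had means of 27.0 and 20.8 FPKM. Irf8, a factor of myeloid cells, had 0.0227 FPKM. Ifnb1, which encodes interferon beta, had 1, 9 and 0 reads in control and 1, 0 and 0 with overexpression. In 5 of the 6 libraries it was thus at 0 or 1 read.

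The ISG15 pathway attaches a small ubiquitin-like protein to other proteins. Isg15 itself (chromosome 4, 156199424 to 156200818) had 10.7, 11.5 and 9.05 FPKM in control and 8.36, 9.10 and 7.93 with overexpression. Control replicates 1 and 2 were highest, and control replicate 3 lay just under overexpression replicate 2. Trim25, a ubiquitin ligase acting on the RNA sensor RIG-I, was steady across libraries. It had 17.8, 17.9 and 16.2 FPKM in control and 17.3, 16.2 and 16.4 with overexpression. Herc6, the mouse ligase for Isg15, was near the filter at 1.05, 1.44 and 0.972 FPKM in control and 1.26, 0.920 and 1.19 with overexpression. Usp18, the protease that removes Isg15 and restrains the type I receptor, was under it. Usp18 had 1.35, 0.923 and 0.674 FPKM in control and 0.720, 0.716 and 0.768 with overexpression, so that control replicate 3 was the lowest of all 6 libraries.

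All 3 antigen presentation members were expressed, with a median of 7.46 FPKM, close to the 6.98 FPKM of the 5 signalling members. B2m, the light chain of MHC class I molecules, was the highest member (chromosome 2, 122147686 to 122153083) and ranked 97 of all 24938 genes. It had 531, 548 and 442 FPKM in control and 465, 507 and 502 with overexpression, and control replicate 3 was the lowest library. Tap1 and Tap2 encode the transporter that carries peptides into the endoplasmic reticulum. Tap2 had 9.31, 8.85 and 5.93 FPKM in control and 6.15, 7.04 and 7.46 with overexpression, and Tap1 had 5.47, 5.75 and 4.86 against 4.18, 5.45 and 5.85. Control replicate 3 lay below every overexpression library for Tap2, whereas for Tap1 overexpression replicate 1 was lowest.

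The rest of the class I pathway was uneven. Of a list of 16 further genes, all in the tables, 13 were above the filter. H2-D1, a class I heavy chain, had a mean of 204 FPKM and was 10.5 to 11.7 times as high as H2-K1 at 18.4 in each library. H2-Q4 had 2.25 FPKM and H2-T23 0.609. Heavy chain genes resemble each other and vary between mouse strains, so reads may have been split or lost among them. Tapbp, which joins the transporter to class I molecules, had 20.7 FPKM. The inducible proteasome subunits also differed widely. Psmb10 had 16.8 FPKM and Psmb9 had 2.56, while Psmb8 had 0.0933 on 30 reads. Exons of Psmb9 and Tap1 overlap on opposite strands, as do those of Psmb8 and Gm20496. Part of the reads of these genes is uncertain if strand was not used in counting. Nlrc5, the interferon-induced activator of class I genes, had 0.0311 FPKM.

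Antiviral effectors, 19 of the 21 listed being in the tables, had the widest range and a median of 0.611 FPKM. Those that act at membranes were highest. Ifitm2 and Ifitm3, which hinder fusion of virus with the cell, lie near each other on chromosome 7 (140954837 to 140955987 and 141009586 to 141010770). Ifitm2 had 498, 487 and 423 FPKM in control and 393, 469 and 474 with overexpression. Ifitm3 had 274, 267 and 241 FPKM in control and 205, 251 and 267 with overexpression. Overexpression replicate 1 was the lowest library for both, and the ratio of Ifitm2 to Ifitm3 stayed between 1.75 and 1.92 in the 6 libraries. Bst2, which tethers budding virus to the cell, had 27.9, 30.3 and 21.8 FPKM in control and 27.1, 25.4 and 25.4 with overexpression. Samhd1, which degrades nucleotides needed for reverse transcription, was steady at 13.5, 13.9 and 12.6 FPKM in control and 13.1, 13.5 and 14.0 with overexpression.

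Effectors that act on RNA were low, apart from Ifit2. Ifit proteins bind viral RNA and block its translation, and their genes form a cluster on chromosome 19. Ifit2 (34550694 to 34576419) had 20.1, 19.8 and 16.2 FPKM in control and 20.8, 22.1 and 20.1 with overexpression. Ifit3 (34583531 to 34588731) had 3.75, 3.62 and 1.98 FPKM in control and 1.79, 2.98 and 2.64 with overexpression. Ifit1 (34640871 to 34650009) had 0.350, 0.599 and 0.315 FPKM in control and 0.245, 0.297 and 0.806 with overexpression. Ifit2 exceeded Ifit3 by 5.36 to 11.6 times and Ifit1 by 24.9 to 85.2 times across libraries. The ratio to Ifit3 depends on how reads were split with its near copy Ifit3b, which had a mean of 2.96 FPKM. The core motif was found in the windows of Ifit3 and Ifit1 printed above and in neither window of Ifit2.

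Oligoadenylate synthetases make the messenger that activates RNase L. Of the listed Oas genes and the Oas-like genes Oasl1 and Oasl2, only Oas1a passed the filter. It had 1.94, 1.84 and 1.99 FPKM in control and 1.66, 1.65 and 1.76 with overexpression. Each control library exceeded each overexpression library, on 221 and 182 reads. Under the filter this held for 3 of 15 members, Oas2, Oas3 and Irf7, all lower with overexpression. Each had a limma adjusted p of 0.884 when no filter was applied. Over all genes above the filter the share with overexpression lower was 4.69%. That share was not counted for genes under the filter, so these 3 have no background of their own. Oas2 had 0.450, 0.368 and 0.293 FPKM in control and 0.119, 0.198 and 0.156 with overexpression, on 101 and 41 reads. Oas3 had 0.664, 0.715 and 0.702 FPKM in control and 0.443, 0.506 and 0.636 with overexpression, on 299 and 214 reads. Oasl2 had a mean of 0.138 FPKM and Oasl1 of 0.0686. Zbp1, a sensor of Z-form nucleic acid, stood at 0.222 and 0.239 FPKM in the first and second control libraries and at 0.0395 to 0.1 in the rest. The values of Oasl2 there were 0.245 and 0.235 FPKM, and 0.0729 to 0.102 elsewhere. Control replicate 3 thus sat with the overexpression libraries for both genes, though on only 5 reads of Zbp1 and 10 of Oasl2. Of the 15 members under the filter, that library was highest in 4 and lowest in 2. The RNA helicase Ddx60 had 10 reads in all 6 libraries together.

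Of the interferon-induced GTPases on the list, the guanylate-binding proteins Gbp2 and Gbp3 were above the filter, and Mx proteins were hardly expressed. Gbp3, which like its relatives attacks membranes around intracellular pathogens, had 2.68, 2.42 and 3.30 FPKM in control and 1.86, 2.48 and 2.85 with overexpression. Gbp2 ranged from 3.36 FPKM in overexpression replicate 1 to 7.21 in overexpression replicate 3, with controls at 5.15, 5.15 and 6.08. Gbp7 was under the filter at a mean of 0.315 FPKM. Mx1 and Mx2, dynamin-like proteins that trap viral nucleocapsids, had 23 and 24 reads in all 6 libraries together. Of the 23 reads of Mx1, 15 were in control and 8 with overexpression.

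Parp9 and Dtx3l, which form a ubiquitin ligase of the interferon response, are neighbours on opposite strands of chromosome 16, and Parp14 lies near them. Parp9 (35938470 to 35972605) had 4.07, 3.90 and 3.41 FPKM in control and 2.86, 3.64 and 3.25 with overexpression, so the groups overlapped. Dtx3l (35926511 to 35939151) had a mean of 2.86 FPKM. Their exons overlap, and part of their reads is uncertain if strand was not used in counting. Parp14 (35832874 to 35871544) had 6 reads in all, and the mean of Parp9 was 629 times as high. Across all libraries, levels of neighbours did not overlap between genes for Ifit2, Ifit3 and Ifit1, for Parp9 and Parp14, or for Psmb9 and Psmb8. The same held for Oas1a against Oas3, for Ifitm2 against Ifitm3 and for Tap2 against Tap1. Ifitm2 and Ifitm3 lay within a factor of 1.92 in each library, and Tap2 and Tap1 within 1.7.

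**Figure D2:**
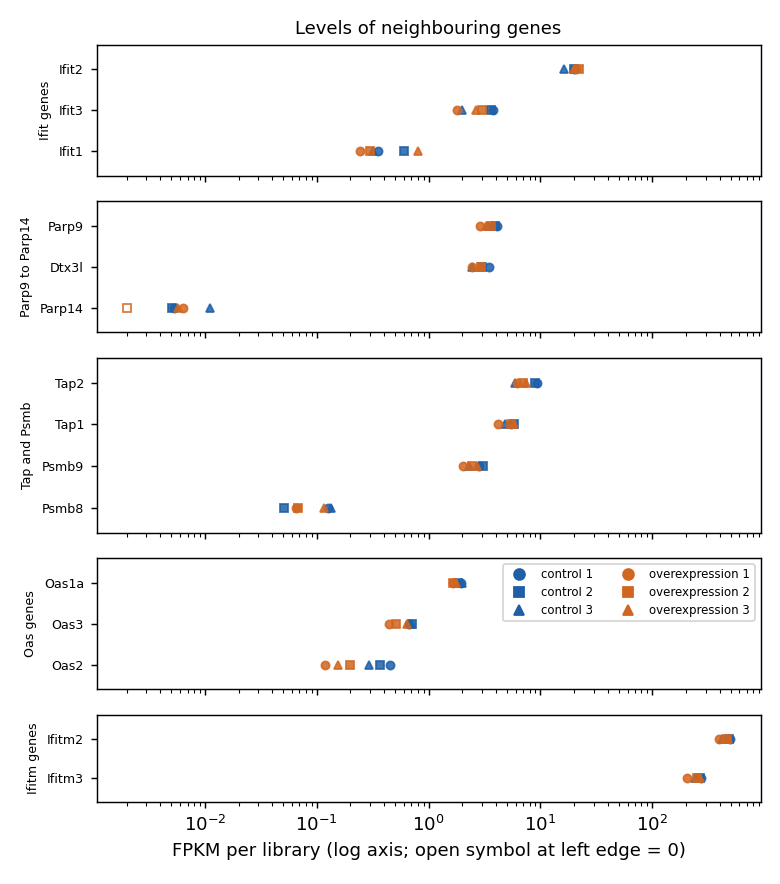
FPKM of genes that lie near each other in 5 regions, on a log axis, with 1 symbol per library and an open symbol at the left edge for a value of 0. Parp14 and Psmb8 lie far to the left of their neighbours in all 6 libraries, and Ifit2, Ifit3 and Ifit1 do not overlap each other.

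Among the remaining induced genes, Ifi27, which encodes a small mitochondrial membrane protein, was highest (chromosome 12, 103434211 to 103440239). It had 39.0, 40.7 and 38.6 FPKM in control and 32.4, 33.9 and 36.6 with overexpression. Every control library lay above every overexpression library. Lgals3bp, a secreted glycoprotein, had 19.1, 20 and 16.2 FPKM in control and 18.1, 16.1 and 15.6 with overexpression. Ifi35 had a mean of 6.52 FPKM, Xaf1 of 4.77 and Rtp4 of 0.873, while Ifi44 had 12 reads in all 6 libraries together.

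No expressed member differed between F-CircAE overexpression and control after adjustment. By limma with Benjamini-Hochberg adjustment over all 12222 tested genes, 0 of the 25 members had an adjusted p below 0.05, as did 0% of all genes, and the smallest adjusted p of a member was 0.842. At an unadjusted p below 0.05 there were 2 members, Ifi27 and Isg15, against 5.17% of all genes. Both were lower with overexpression, as were 2.31% of all genes at that p. By limma-voom on recovered reads 0 members passed after adjustment and 1 was at an unadjusted p below 0.05, against 5.22% of all genes. Estimates were nonetheless mostly on 1 side. They lay below 0 in 23 of 25 members (92%), against 46.8% of all tested genes, with a median log2 fold change of -0.12 against 0.008 for all genes. The members were chosen with earlier results of these data known, and the near-identical control pair enters every one of them. The 95% interval excluded a 2-fold change of FPKM + 1 either way in 25 of 25 members and a 1.5-fold change in 23. Most tested genes were alike in this, 11809 and 10891 of 12222.

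By role, most estimates lay on that side too. All 4 expressed signalling and IRF members had estimates below 0, with a median of -0.11. So did the 3 of antigen presentation (median -0.05) and the 3 of the ISG15 pathway (median -0.05). Of the 9 expressed antiviral effectors 7 were below 0 (median -0.12), with Ifit2 and Samhd1 above. Of the 13 other signalling genes 9 were below 0 (median -0.03), and Irf2, a factor that competes with Irf1, was the single gene at an unadjusted p below 0.05. Of the 13 other class I genes 6 were below 0 (median 0.03). None of these genes passed after adjustment. With array weights and the control pair averaged, the median turned to 0.04 for antigen presentation and 0.02 for antiviral effectors.

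**Figure D3:**
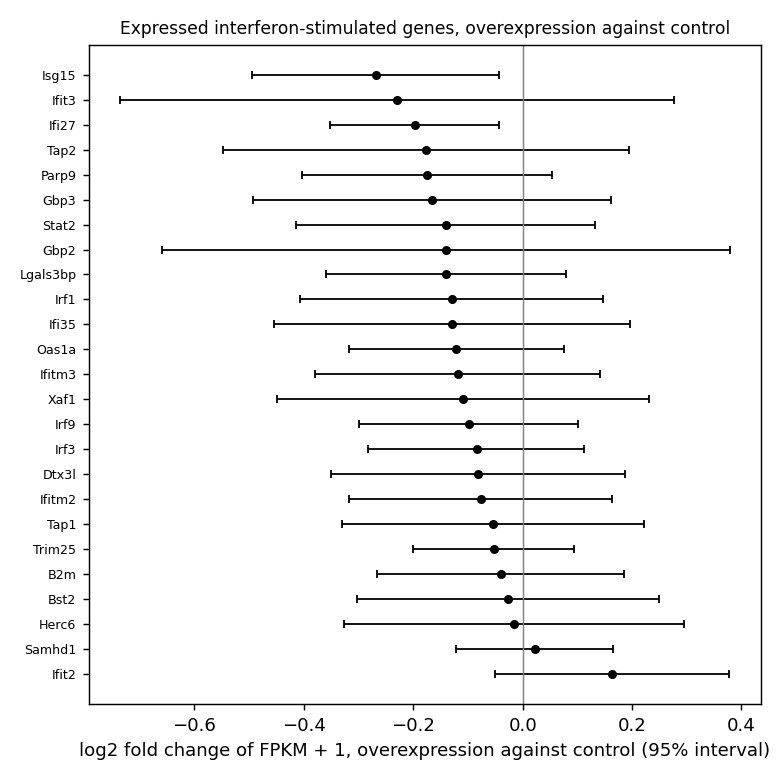
Log2 fold change of FPKM + 1 (points) with its 95% interval (bars) for the 25 expressed members, overexpression against control, fitted by limma over all tested genes. Estimates lie left of 0 for 23 members, and the interval leaves out 0 for Isg15 and Ifi27 alone.

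The 10 members with the smallest p were the following, each with its limma adjusted p. Ifi27 had a log2 fold change of -0.20 (SE 0.07, adjusted p = 0.842), its control mean being 39.4 ± 1.15 FPKM and its overexpression mean 34.3 ± 2.17 (SD, n = 3). Isg15 had -0.27 (SE 0.10, adjusted p = 0.842), with means of 10.4 ± 1.26 and 8.46 ± 0.59 FPKM (SD, n = 3). For Parp9 the estimate was -0.18 and for Ifit2 it was 0.16 (adjusted p = 0.842 for both), the latter being the largest value above 0. Lgals3bp (-0.14) and Oas1a (-0.12) both had an adjusted p of 0.843. Stat2 (-0.14), Gbp3 (-0.17), Irf9 (-0.10) and Tap2 (-0.18) each had an adjusted p of 0.850. The direction of each of the 10 was the same under every alternative in which the gene was tested.

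In 2 of the 25 members, Ifi27 and Oas1a, the 3 libraries of one group did not overlap the 3 of the other, and both were lower with overexpression. Over all tested genes 11.5% did not overlap, and 4.69% did so with overexpression lower. With control replicate 3 left out, 16 members did not overlap and 8 were at an unadjusted p below 0.05, all of them lower with overexpression. Over all genes these shares, counted in either direction, then were 39.7% and 15.3%. The control libraries left in that setting were the near-identical pair. After averaging the similar control pair, 20 of 25 estimates stayed below 0, while the median of all genes was 0.01. At an unadjusted p below 0.05 there were then 0 members, beside 1.97% of all genes. Without overexpression replicate 1, 19 members were below 0 and their median was -0.06, against 0.011 for all genes. Libraries were also weighted by estimated quality, at 2.16, 2.57 and 0.236 in control and 0.278, 4.64 and 0.593 with overexpression. That fit thus leaned on overexpression replicate 2 and the near-identical control pair. It gave 6 calls of 25, beside 18.3% of all genes. These were Ifi27, Isg15, Lgals3bp, Tap2, Irf1 and Xaf1, with limma adjusted p from 0.022 to 0.0439. In all other settings the smallest adjusted p of these 6 genes was 0.201, and with the control pair averaged the weighted fit called 0.

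Members tended to be high or low together in particular libraries. Control replicate 1 or 2 held the highest value in 17 of the 25 expressed members (9 and 8), where these libraries were highest in 14.1% and 14.7% of all tested genes. Overexpression replicate 1 was lowest in 14 members, against 25.1% of all genes, and highest in 0, against 26.2% of all genes. Control replicate 3 was below both other controls in 19 of 25 members, against 41.2% of all genes. The mean deviation of the members from their own averages, in log2(FPKM + 1), was 0.12 and 0.11 in control replicates 1 and 2 and -0.07 in control replicate 3. With overexpression it was -0.17, -0.02 and 0.03 in replicates 1, 2 and 3. Overexpression replicate 3 was thus above control replicate 3, and the groups overlapped. The 15 members under the filter had summed levels of 5.28, 5.26 and 3.95 FPKM in control and 2.88, 3.41 and 4.71 with overexpression. Control replicate 1 was again the highest library and overexpression replicate 1 the lowest.

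**Figure D4:**
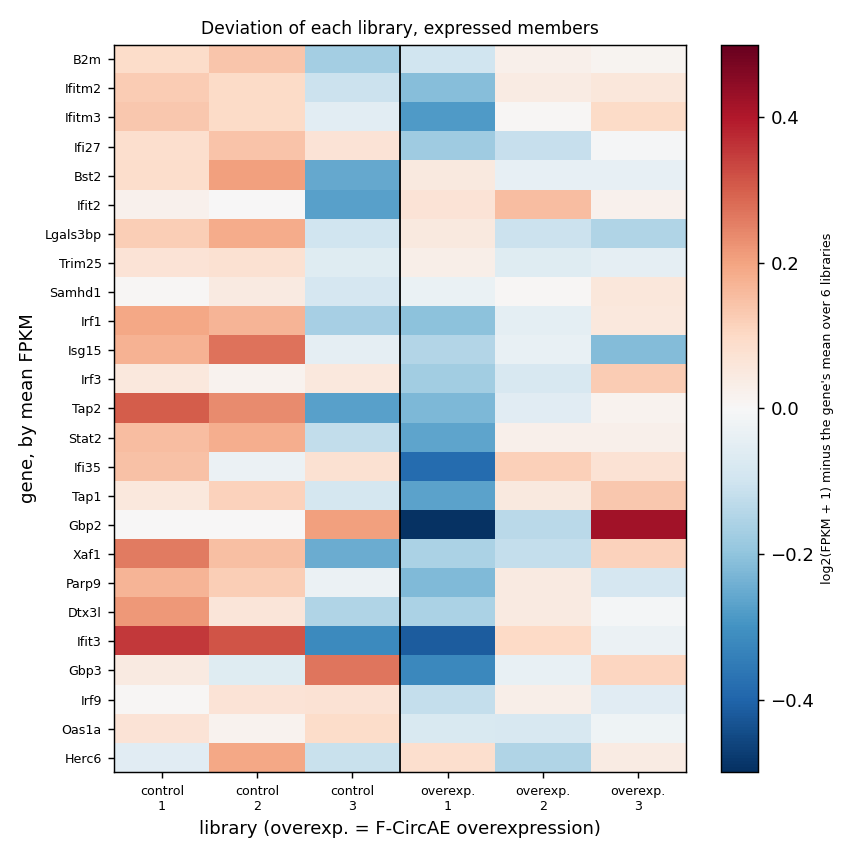
Deviation of log2(FPKM + 1) from the gene's own mean over 6 libraries, for the 25 expressed members (rows, by mean FPKM) and the libraries (columns). Red is above and blue below the mean. Control replicates 1 and 2 are mostly red, while overexpression replicate 1 is mostly blue and holds the lowest value in 14 rows.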

How the data were processed

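Libraries were made from DNase-treated total RNA with an NEBNext Ultra kit and read as paired ends on an Illumina HiSeq, per the labels' protocols. Each deposited file gives FPKM per Ensembl gene ID, per the file headers, computed by the authors; the build was mm10, per the submitters' processing notes, with aligner, counter, strand setting and annotation not given in the sources used here. Groups and replicate numbers came from the sample titles. Symbols, coordinates and exon lengths came from GENCODE M21 on mm10 (24816 of 24938 IDs matched). The steps of low FPKM values gave whole reads within 0.01 reads, with the annotated length for 79.5% of genes and the smallest fitting length for the others (8 members), which is no independent check of those. Such reads cover counting error only, not independent molecules.

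Genes above 1 FPKM in at least 3 libraries were tested with limma 3.58.1 (R 4.3.3, trend and robust moderation) on log2(FPKM + 1), group as the only term, with calls at a Benjamini-Hochberg adjusted p of 0.05; the test was checked on simulated data. Fold changes on this scale understate changes of low genes. Alternatives were other pseudocounts (0.1 and 5), a stricter filter (5 FPKM) or none, a replicate block, omission of single libraries, rescaling to the upper quartile or total FPKM, limma-voom on recovered reads with the authors' scale as library size, averaging control replicates 1 and 2, and array weights. Members, role groups and context lists were chosen with earlier results of these data known. Values per library were to be given for expressed signalling, ISG15 pathway and antigen presentation members, the 10 members with the highest mean and the 10 with the smallest p; others named were chosen after their values were seen. Fibroblast, leukocyte, epithelial and endothelial markers checked the cell line. A gene of the signalling list is counted but not reported here.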

Additional observations from a re-analysis of the deposited data

How the results depend on the processing

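The count of 0 members past the adjusted threshold was the same under every alternative run except array weights. These gave 6, beside 18.3% of all genes. The count of 2 members at an unadjusted p below 0.05 became 11 with array weights, where 37.5% of all genes were at that p. It was 1 with limma-voom on recovered reads and 0 with control replicates 1 and 2 averaged, beside 5.22% and 1.97% of all genes. When single libraries were left out it ran from 0 to 8, beside 2.11% to 15.3% of all genes, the highest without control replicate 3. The count of 2 members whose groups did not overlap became 4 after rescaling to the upper quartile and 4 after rescaling to total FPKM. Without single libraries it ran from 2 to 16, again highest without control replicate 3, where 39.7% of all genes did not overlap. The shares of all genes after rescaling, or with any other single library left out, were not counted. The rise of these counts above 2 thus cannot be set against all genes there. The median log2 fold change of all expressed members stayed below 0 in every setting run, from -0.17 without overexpression replicate 3 to -0.05 with array weights and the control pair averaged, where that of the antiviral effectors became 0.015 and that of antigen presentation 0.042. Rescaling moved the median of all genes to -0.01 (upper quartile) and -0.05 (total FPKM). The cause of these changes was not tested. Same-numbered libraries did not deviate together (r = -0.10, 0.08 and 0.003 over 12222 genes). With the replicate block 1 member was at an unadjusted p below 0.05, beside 3.63% of all genes, and 0 passed. Members under 0.1 FPKM rest on 6 to 24 reads in all, which allows no statement on a difference between groups.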

Other observations

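Close relatives of some members were also listed, looked up after the members' values were seen. Ifit3b, a near copy of Ifit3, had a mean of 2.96 FPKM beside the 2.79 of Ifit3, and their split of reads is uncertain. Ifi27l2a, a relative of Ifi27, was higher than it at 56.2 FPKM, while Ifi27l2b had 0.0589. Among guanylate-binding proteins Gbp9 had 2.65 FPKM, Gbp4 had 0.664, and Gbp5 and Gbp6 had 6 and 2 reads in all. Ifitm1, the third gene of its cluster, had 1.13 FPKM, far under Ifitm2 and Ifitm3. Oas1c and Oas1b had 0.794 and 0.661 FPKM beside the 1.81 of Oas1a. No comparison of groups was made for these genes.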
